A study of Mus musculus with 10 samples.

Results

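The libraries labelled sgWdr4-1, from a line given a guide RNA against Wdr4, were compared with the libraries labelled WT. Of 21934 gene symbols in the deposited table, 7564 entered the comparison. A gene entered when its mean TPM (a transcript level scaled for transcript length and library size) was at least 5 over the 2 input libraries and at least 5 over the 2 footprint libraries. Of the 10 libraries in the series, 4 carry the comparison, namely input RNA and ribosome footprints from each line. Both lines are described as monoclonal immortalized bone marrow-derived macrophages (iBMDM) from mouse. The sgWdr4-1 cells received a lentivirus carrying a guide RNA against Wdr4 and were selected in puromycin for a week or longer. The control is labelled WT, and no control vector or guide is named for it. Each line is 1 clone with 1 library of each kind, so a difference between the lines has no replicate check and no test was possible. Clone, guide and library preparation cannot be told apart. A second line, made with another guide and labelled sgWdr4-2, was measured in the same way and shares the WT libraries. Its values stand beside those of sgWdr4-1 only to show where the lines differed. The study's remaining 4 libraries, from sorted tumour-associated macrophages, are used here only for library composition.

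Wdr4 is the non-catalytic partner of the methyltransferase Mettl1. Together they place 7-methylguanosine (m7G) in the variable loop of a subset of cytosolic tRNAs, a modification known to protect those tRNAs from decay. Ribosome profiling sequences the short mRNA fragments that ribosomes shield from nuclease, and the ratio of footprints to input RNA is used as a measure of how heavily an mRNA is translated. Mitochondria translate the mRNAs of their own genome on separate ribosomes with separate tRNAs. Cells that change their rate of growth are known to adjust translation of the mRNAs for ribosomal proteins and elongation factors, many of which begin with a pyrimidine tract called TOP (terminal oligopyrimidine).

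Wdr4 itself was checked first, since it is the targeted gene. Its input RNA was 44.6 TPM in WT, 31.3 in sgWdr4-1 and 44.5 in sgWdr4-2. Its footprints were 13.3 TPM in WT, 24.3 in sgWdr4-1 and 26.9 in sgWdr4-2. The input of the library labelled sgWdr4-1 was thus lower than in WT by 0.50 on the log2 scale, while its footprints were higher, against what the label alone would lead one to look for. An edit that disrupts the reading frame need not lower the RNA, so the deposited levels check the guide label only in part, and the names WT and sgWdr4-1 below stand for the libraries so labelled. For Mettl1, the catalytic subunit, input was 60.5 TPM in WT, 58.9 in sgWdr4-1 and 58.2 in sgWdr4-2, and footprints were 98.2 TPM in WT, 114 in sgWdr4-1 and 82.3 in sgWdr4-2, so both were close to WT. Of the 26 macrophage markers listed, 23 were under 1 TPM in both inputs and 6 were at 0 in all 4 libraries, while 13 of 20 fibroblast and stellate cell markers reached 5 TPM in both. The summed macrophage markers were 589.5 TPM in WT input and 564 TPM in sgWdr4-1 input, of which Lgals3 alone, a galectin that many cell types make, gave 569 and 546 TPM. The cell type in the label was therefore not borne out by its markers in either line, and the part this played in any result was not tested. Library composition differed most in the footprints, where the 13 mitochondrially encoded genes took 14.6% of all TPM in WT and 0.781% in sgWdr4-1, against 9.94% to 13.6% in the other 3 footprint libraries. In the inputs of WT and sgWdr4-1 that share was 6.02% and 5.39%. Cytosolic ribosomal proteins took 9.98% of WT footprints and 13.3% of sgWdr4-1 footprints, against 10.8% to 14.3% in the other 3.

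The sgWdr4-1 input library had nearly the same mRNA levels as that of WT, while the footprint libraries differed widely over those mRNAs. All changes are differences of log2(TPM + 1), sgWdr4-1 minus WT, a scale on which 1 is 2-fold and which understates the change of low genes. In input, 26 of the 7564 genes (0.344%) lay above WT by 2-fold or more and 7 (0.0925%) below it by as much. In footprints 1225 genes (16.2%) were at least 2-fold higher and 774 (10.2%) at least 2-fold lower. Translation efficiency (TE), the footprint change minus the input change, was at least 2-fold higher for 1129 genes (14.9%) and at least 2-fold lower for 1032 (13.6%). These shares are the background for the TE counts of each gene group below. The robust SD over genes, which ignores extreme genes, was 0.227 for input, 0.920 for footprints and 0.970 for TE. The TE differences therefore followed the footprints and not the RNA. Among genes with at least 2-fold higher TE, 1108 of 1129 (98.1%) had input within 1.5-fold of WT, with a median input change of -0.03 and a median footprint change of 1.37. Genes with at least 2-fold lower TE had input within 1.5-fold in 937 of 1032 cases, a median input change of 0.18 and a median footprint change of -1.14. Of those 1032 genes, 837 had input above WT, as did 4794 of all 7564 genes. Since TE is the footprint change minus the input change, input was part of how these genes were chosen. In bulk lysates a change in every cell and a change in the share of cells cannot be told apart. Genes at least 2-fold higher in both input and footprints numbered 4, and none was at least 2-fold lower in both.

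**Figure D1:**
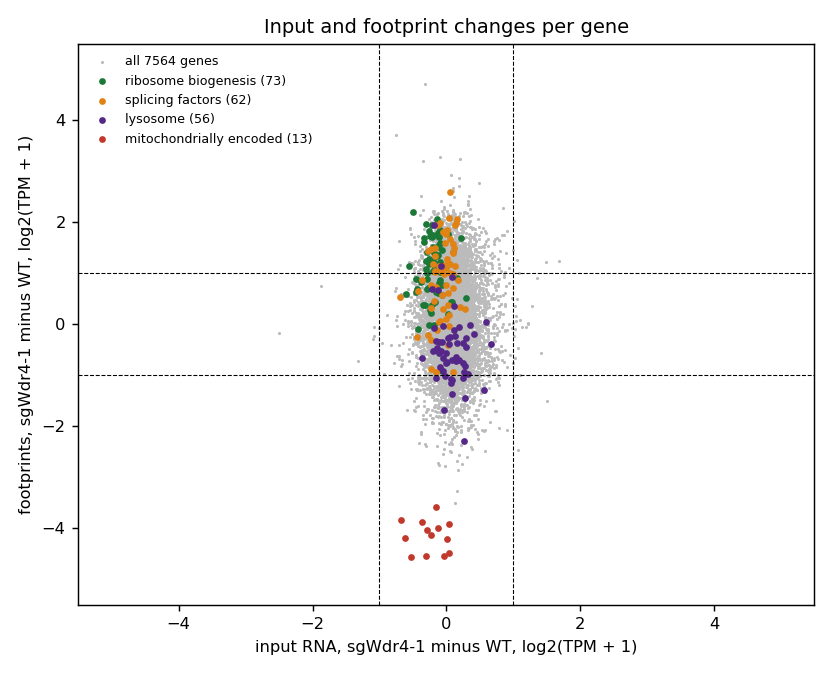
Each point is 1 of 7564 genes, with the input change on the horizontal axis and the footprint change on the vertical axis, both sgWdr4-1 minus WT on the log2(TPM + 1) scale, and dashed lines at 2-fold. The cloud is tall and narrow, with a robust SD of 0.920 for footprints against 0.227 for input, and the 13 mitochondrially encoded genes lie apart at the bottom.

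TPM values sum to a fixed total in each library, so a lower mitochondrial share of footprints raises the shares of the other genes. With each library rescaled to the same total without the 13 mitochondrially encoded genes, 7734 genes passed the same filter, the median TE change moved from 0.03 to -0.18, and the split of at least 2-fold changes became 793 higher and 1516 lower. With ribosomal protein and histone genes left out as well, the split was 978 higher and 1400 lower. With the filter raised to a mean of 20 TPM it was 731 higher and 457 lower. A balance between higher and lower TE is thus a matter of scaling here, and the order of genes and gene groups carries the comparison. The median TE change of each of the 31 listed gene groups kept its sign under each of 3 rescalings that retained its genes, including one that set the median change of all genes to 0. Sub-groups of these lists were not recomputed.

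The sgWdr4-1 line stood further from WT than the sgWdr4-2 line did. Over the same 7564 genes, sgWdr4-2 minus WT had a robust SD of 0.0962 for input, 0.516 for footprints and 0.531 for TE. At least 2-fold TE changes in sgWdr4-2 numbered 230 higher and 399 lower. Set directly against sgWdr4-2, a comparison that leaves WT out, sgWdr4-1 had 1227 genes with at least 2-fold higher TE and 872 with lower TE, at a robust SD of 0.905. The footprints of sgWdr4-1 therefore differed about as much from the other guide's line as from WT. The TE level of a gene, footprint minus input on the log2(TPM + 1) scale within 1 line, had a robust SD over genes of 1.17 in WT, 1.00 in sgWdr4-1 and 1.15 in sgWdr4-2. The 5th and 95th percentiles were -2.37 and 1.44 in WT and -2.57 and 1.23 in sgWdr4-1, so the middle of the distribution was narrower in sgWdr4-1 but not its outer span. TE changes were shifted upward among the most abundant mRNAs. When the genes were divided by input TPM into 4 bins of 1891, the bin with the least input had 12.0% at least 2-fold higher in TE and 15.9% lower. The bin with the most had 21.2% higher and 9.36% lower, and the median changes of these bins were -0.07 and 0.22.

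**Figure D2:**
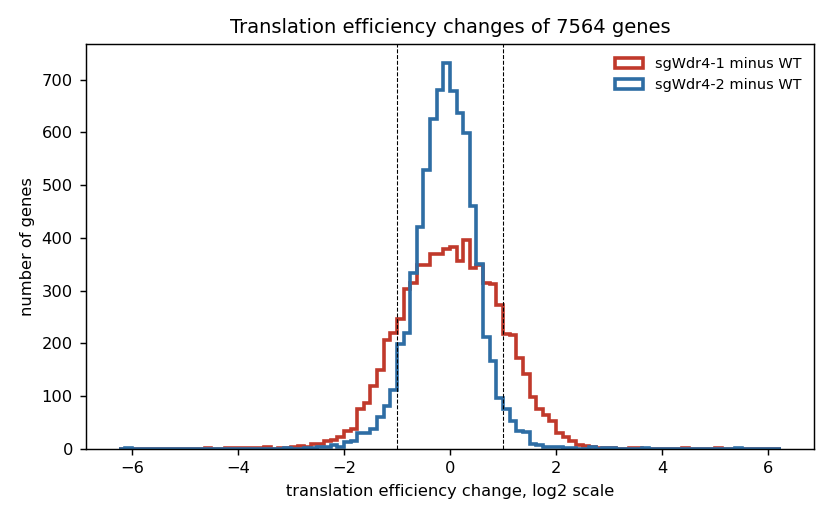
Histogram of TE changes over 7564 genes in steps on the log2 scale, red for sgWdr4-1 minus WT and blue for sgWdr4-2 minus WT, with dashed lines at 2-fold. The red distribution is wider, with robust SDs of 0.970 and 0.531, and both share the WT libraries.

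Footprints on the mRNAs made inside mitochondria were far lower in sgWdr4-1, while the mRNAs themselves were mostly near the WT level. The mitochondrial genome encodes 13 proteins, all of them subunits of the respiratory chain or of ATP synthase. All 13 had at least 2-fold lower TE, with a median of -3.90 and a range from -4.52 for mt-Cytb to -3.16 for mt-Atp8. Their median input change was -0.23. Footprints of mt-Co1, the core subunit of cytochrome c oxidase, were 12713 TPM in WT, 690.2 in sgWdr4-1 and 8737 in sgWdr4-2, and its input was 9204 TPM in WT and 9258 in sgWdr4-1. Footprints of mt-Cytb, the cytochrome of complex III, were 14857 TPM in WT, 661 in sgWdr4-1 and 7547 in sgWdr4-2, and its input was 4593 TPM in WT and 4694 in sgWdr4-1. Both mRNAs were as abundant as in WT, while footprints were 18.4-fold higher in WT than in sgWdr4-1 for mt-Co1 and 22.5-fold higher for mt-Cytb. The pattern held for mt-Nd1, a complex I subunit, at 2600.0 TPM in WT, 158 in sgWdr4-1 and 2069 in sgWdr4-2, and for mt-Atp6, an ATP synthase subunit, at 17953 TPM in WT, 773 in sgWdr4-1 and 18507 in sgWdr4-2. The smallest footprint change of the 13 was that of mt-Nd5, which was 12.0-fold higher in WT than in sgWdr4-1. In sgWdr4-2 the medians of the 13 genes were also below WT but far less so, at -0.54 for footprints and -0.44 for TE. Footprints of mt-Atp6 were not lower in sgWdr4-2, with a change of 0.04.

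Input RNA of the 13 genes was not uniform. It was 1092 TPM in WT, 683 in sgWdr4-1 and 897 in sgWdr4-2 for mt-Atp8, 1381 TPM in WT, 898 in sgWdr4-1 and 1015 in sgWdr4-2 for mt-Nd4l and 3887 TPM in WT, 2699 in sgWdr4-1 and 3333 in sgWdr4-2 for mt-Nd3, which gave changes of -0.68, -0.62 and -0.53. The frames of mt-Atp8 and mt-Nd4l share an mRNA with mt-Atp6 and mt-Nd4, whose input changes were -0.30 and 0.04. How reads over shared mRNAs were divided is not given. Nuclear genes that serve the same complexes did not share the footprint loss. The 73 nuclear-encoded respiratory chain genes had a median TE change of 0.26. Of the 73, 7 (9.59%) were at least 2-fold higher and 0 lower, against 14.9% and 13.6% of all genes. Atp5f1a, the alpha subunit of ATP synthase, had footprints of 194 TPM in WT, 722 in sgWdr4-1 and 183 in sgWdr4-2, and Sdha, the flavoprotein of complex II, had 30.1 TPM in WT, 116 in sgWdr4-1 and 30.4 in sgWdr4-2. Both were thus higher in sgWdr4-1 than in either other line, at nearly equal input. Ndufc1, a small complex I subunit, was lower in both kinds of library. It had input of 94.1 TPM in WT and 65.7 in sgWdr4-1 and footprints of 289.8 TPM in WT, 139 in sgWdr4-1 and 322 in sgWdr4-2. Mitochondrial ribosomal proteins (78 genes) had a median TE change of 0.28. Of these, 9 (11.5%) were at least 2-fold higher and 0 lower, against 14.9% and 13.6% of all genes. Mrps31 was highest, with footprints of 7.49 TPM in WT, 33.8 in sgWdr4-1 and 5.94 in sgWdr4-2. The 11 mitochondrial aminoacyl-tRNA synthetases had a median of 0.75, with Nars2 and Yars2 at least 2-fold higher, at 1.39 and 1.30. That is 18.2% of the group, near the 14.9% of all genes.

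**Figure D3:**
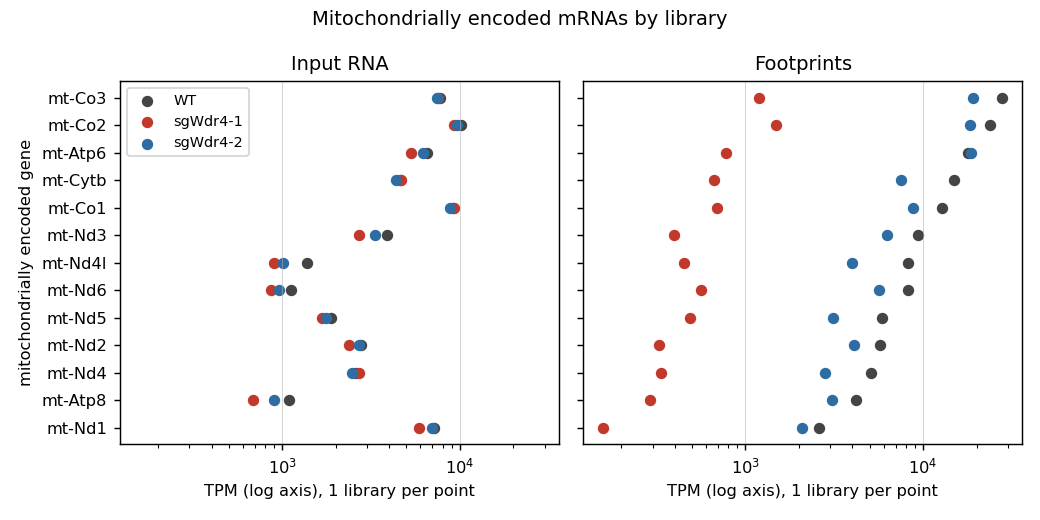
TPM of the 13 mitochondrially encoded genes in input RNA (left) and footprints (right) on a log axis, 1 point per library for WT, sgWdr4-1 and sgWdr4-2. Input points lie close together, while the sgWdr4-1 footprint points lie apart to the left for all 13 genes, for mt-Co3 at 1199 TPM against 27994 TPM in WT.

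Most of the cytosolic translation machinery had more footprints per mRNA in sgWdr4-1. Of 76 cytosolic ribosomal protein genes, 23 had at least 2-fold higher TE and 0 lower, with a median of 0.75. Their input was below WT in all 76, with a median of -0.24. In sgWdr4-2 the median TE change of these genes was 0.48, and set directly against sgWdr4-2 it was 0.26 in sgWdr4-1. Rpl8, a large subunit protein, had input of 3936 TPM in WT and 3667 in sgWdr4-1 and footprints of 1055 TPM in WT, 3202 in sgWdr4-1 and 1630.3 in sgWdr4-2. Rps4x, a small subunit protein, had input of 2897 TPM in WT and 2644 in sgWdr4-1 and footprints of 501 TPM in WT, 1479 in sgWdr4-1 and 740.2 in sgWdr4-2. Both had the most footprints in sgWdr4-1 and an intermediate level in sgWdr4-2. Rps28 and Rps29, which are among the smallest ribosomal proteins, went another way. Rps29 had input of 966 TPM in WT, 578 in sgWdr4-1 and 775 in sgWdr4-2 and footprints of 4985 TPM in WT, 3253 in sgWdr4-1 and 8007 in sgWdr4-2, and Rps28 had input of 1092 TPM in WT, 729.8 in sgWdr4-1 and 965 in sgWdr4-2 and footprints of 1344 TPM in WT, 899.9 in sgWdr4-1 and 2161 in sgWdr4-2. For Rps29 and Rps28 both quantities were lowest in sgWdr4-1, so TE hardly differed from WT, at 0.13 for Rps29. Many ribosomal protein genes have processed pseudogenes, and how reads that fit several places were counted is not given, so single values in this family are uncertain.

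Start-site sequences were read to set the TOP tract beside these changes. The RefSeq table of GRCm38.p6 held a promoter for 6085 of the 7564 genes. A tract was taken as a C followed by at least 6 pyrimidines (C or T), on the transcribed strand, beginning within 10 bases of the annotated start. It was found in 14.8% of the genes that entered, in 12.2% of all 32851 RefSeq promoters in the table and in 29 of 56 ribosomal protein genes. The lines below show 25 bases around the start for genes with the tract, in capitals, and for genes without a match, which were chosen as examples after their values were seen.
Rpl13a, chr7:45128731-45128755, minus strand: cctgcgacaagaCCTCCTCCTTTCC
Rps6, chr4:86857353-86857377, minus strand: gaagtcgggCCTCTTTTTCgtgacg
Rpl38, chr11:114668570-114668594, plus strand: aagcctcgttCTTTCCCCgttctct
Eef1a1, chr9:78481710-78481734, minus strand: ctccgCCCTCTTCCCgagggtgggg
Rps3, chr7:99483695-99483719, minus strand: aagggtcgccgcgctgcgcggcgtc
Eef2, chr10:81176621-81176645, plus strand: aaggccgggcgttgacgtcagcggt
Ncl, chr1:86359441-86359465, minus strand: cggggacggacgcgagctctggttg
A match to the tract at the annotated start did not separate the ribosomal protein genes by TE change. The median was 0.61 over 29 genes with it and 0.84 over 27 without. Among all genes, 15.7% of those with at least 2-fold higher TE and 16.3% of those with at least 2-fold lower TE had the tract, both near the 14.8% of the background. Rps6, with the tract, had footprints of 1257 TPM in WT, 2618 in sgWdr4-1 and 1735 in sgWdr4-2, and Rps3, without a match, had 616 TPM in WT, 1349 in sgWdr4-1 and 876 in sgWdr4-2. Ncl, also without a match, is described below and had a larger TE change than any ribosomal protein named here. A missing match says only that these letters were not in this window. Genes without a match can still make TOP mRNAs, so the comparison cannot say whether TOP mRNAs differed from others. Promoters of genes with higher TE had a median GC content of 59.7%, those with lower TE 64.7% and all matched genes 61.5%.

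Factors that act with the ribosome were higher as well. Of 44 initiation factor genes, 18 had at least 2-fold higher TE and 1 lower, with a median of 0.85 against 0.11 in sgWdr4-2. Eif4b, a helper of the RNA helicase that opens the 5' end, had input of 565 TPM in WT and 511 in sgWdr4-1 and footprints of 89.0 TPM in WT, 334 in sgWdr4-1 and 83.8 in sgWdr4-2. All 13 genes of Eif3, the scaffold complex of the small subunit, had TE above WT, against 51.0% of all genes, and their median was 0.94. This sub-group was formed after the values were seen. Eif3d footprints were 56.2 TPM in WT, 209 in sgWdr4-1 and 55.0 in sgWdr4-2. The gene that went the other way was Eif4g3, a scaffold of the cap-binding complex, at -1.89, from footprints of 8.59 TPM in WT, 3.05 in sgWdr4-1 and 2.40 in sgWdr4-2. Of 20 elongation and termination factor genes, 10 were at least 2-fold higher and 3 lower, with a median of 0.88. Footprints of Eef1a1, which brings tRNAs to the ribosome, were 2357 TPM in WT, 8120.4 in sgWdr4-1 and 3044 in sgWdr4-2, and those of Eef2, which moves the ribosome along, were 657 TPM in WT, 2062 in sgWdr4-1 and 840.5 in sgWdr4-2. Gspt1, the release factor eRF3a, had footprints of 35.6 TPM in WT, 105 in sgWdr4-1 and 39.5 in sgWdr4-2. Input of these 3 genes was within 1.5-fold of WT, with changes of -0.09, 0.02 and -0.21. Eif5a2, Gtpbp2 and Hbs1l were at least 2-fold lower, at -1.91, -1.09 and -1.08.

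Enzymes that charge and modify tRNAs also had higher TE. Of 23 cytosolic aminoacyl-tRNA synthetases, which load amino acids onto tRNAs, 12 had at least 2-fold higher TE and 0 lower, with a median of 1.13 against -0.09 in sgWdr4-2. Lars, the leucine enzyme, had footprints of 17.5 TPM in WT, 82.7 in sgWdr4-1 and 12.8 in sgWdr4-2. Hars1, the histidine enzyme, had 32.4 TPM in WT, 110.0 in sgWdr4-1 and 47.9 in sgWdr4-2. For both, WT and sgWdr4-2 were close to each other and sgWdr4-1 was apart. Input was above WT for 16 of the 23, none by 2-fold, and for 4794 of all 7564 genes. The median input changes were 0.14 and 0.08. Aars, the alanine enzyme, had input of 158 TPM in WT and 218 in sgWdr4-1. Of 53 tRNA modification genes, including Wdr4 and Mettl1, 13 were at least 2-fold higher in TE and 3 lower, with a median of 0.53. Ctu1 and Ctu2, partners that thiolate the wobble base of some tRNAs, had TE changes of 2.40 and 1.57. The lower members were Alkbh1, a demethylase, with footprints of 60.2 TPM in WT, 14.8 in sgWdr4-1 and 21.5 in sgWdr4-2, Adat3, part of the adenosine deaminase of the wobble base, at -1.21, and Tprkb, part of the KEOPS complex, at -1.18. Wdr4's own TE change was 1.32 and that of Mettl1 0.25.

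Ribosome biogenesis had the highest median TE change of the listed groups, their sub-groups aside. These nucleolar genes make and process ribosomal RNA. Of 73, 49 had at least 2-fold higher TE and 0 lower, with a median of 1.30, while the median in sgWdr4-2 was 0.05. Ncl, or nucleolin, had input of 395 TPM in WT and 279 in sgWdr4-1 and footprints of 214 TPM in WT, 985 in sgWdr4-1 and 264 in sgWdr4-2. Its RNA was thus lower in sgWdr4-1 and its footprints several times higher. Npm1, or nucleophosmin, had input of 2301 TPM in WT and 1558 in sgWdr4-1 and footprints of 1628 TPM in WT, 3593 in sgWdr4-1 and 3030.3 in sgWdr4-2. Here sgWdr4-2 footprints were also above WT. Utp20 and Utp6, parts of the small subunit processome, had footprints of 4.20 TPM in WT, 19.4 in sgWdr4-1 and 2.46 in sgWdr4-2 and of 11.5 TPM in WT, 51.5 in sgWdr4-1 and 14.9 in sgWdr4-2. Mybbp1a, a nucleolar protein that binds Myb, had 44.4 TPM in WT, 174 in sgWdr4-1 and 34.1 in sgWdr4-2. The input of the group was mostly a little lower than in WT, with a median of -0.20 and 8 of 73 above 0.

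Splicing factors and other RNA-binding proteins of the nucleus were likewise higher. Of 62 splicing genes, 35 had at least 2-fold higher TE and 1 lower, with a median of 1.09 and 0.14 in sgWdr4-2. All 7 genes of SF3, the complex that recognises the branch point, had at least 2-fold higher TE, with a median of 1.79. Sf3b1, its largest subunit, had input of 133 TPM in WT and 139 in sgWdr4-1 and footprints of 29.4 TPM in WT, 184 in sgWdr4-1 and 25.3 in sgWdr4-2. The 20 hnRNP genes, which coat nascent transcripts, had a median of 1.33, with Syncrip at 66.0 TPM in WT, 259 in sgWdr4-1 and 94.6 in sgWdr4-2. SR proteins, which bind exonic enhancers, stood closer to WT with a median of 0.16 over 12 genes. These sub-groups were formed after the values were seen. The 1 lower member was Hnrnpul1, at -1.04. Snrpd3, a core protein of the spliceosomal snRNPs, had lower input, at 312 TPM in WT and 192 in sgWdr4-1, and footprints of 535 TPM in WT, 779.7 in sgWdr4-1 and 783 in sgWdr4-2.

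Chaperones and the proteasome, which fold and degrade cytosolic proteins, followed. Of 40 heat shock and chaperonin genes, 19 had at least 2-fold higher TE and 0 lower, with a median of 0.93 against 0.29 in sgWdr4-2. Hspd1, the mitochondrial chaperonin Hsp60 encoded in the nucleus, had input of 1095 TPM in WT and 912 in sgWdr4-1 and footprints of 159 TPM in WT, 667 in sgWdr4-1 and 189 in sgWdr4-2. Hsp90aa1, the inducible Hsp90, had input of 780.1 TPM in WT and 564 in sgWdr4-1 and footprints of 411 TPM in WT, 1281 in sgWdr4-1 and 461 in sgWdr4-2. Neither mRNA was more abundant than in WT. Hsph1, a co-factor of Hsp70, had footprints of 31.5 TPM in WT, 151 in sgWdr4-1 and 31.3 in sgWdr4-2, and Bag3, an Hsp70 partner, had 6.70 TPM in WT, 42.6 in sgWdr4-1 and 8.14 in sgWdr4-2. All 8 genes of TRiC, the chaperonin that folds actin and tubulin, had TE above WT, against 51.0% of all genes, with a median of 1.03. TRiC was set apart as a sub-group after the values were seen. Of the 40 genes Hspa1b had the largest change, at 3.56. It has a near-identical copy, Hspa1a, and WT footprints of only 2.58 TPM, so its value is uncertain. Of 41 proteasome genes, 10 (24.4%) were at least 2-fold higher and 0 lower, against 14.9% and 13.6% of all genes, with a median of 0.74. Psmd2, a base subunit of the regulatory particle, had footprints of 33.8 TPM in WT, 99.4 in sgWdr4-1 and 42.0 in sgWdr4-2, at input of 516 TPM in WT and 524 in sgWdr4-1.

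**Figure D4:**
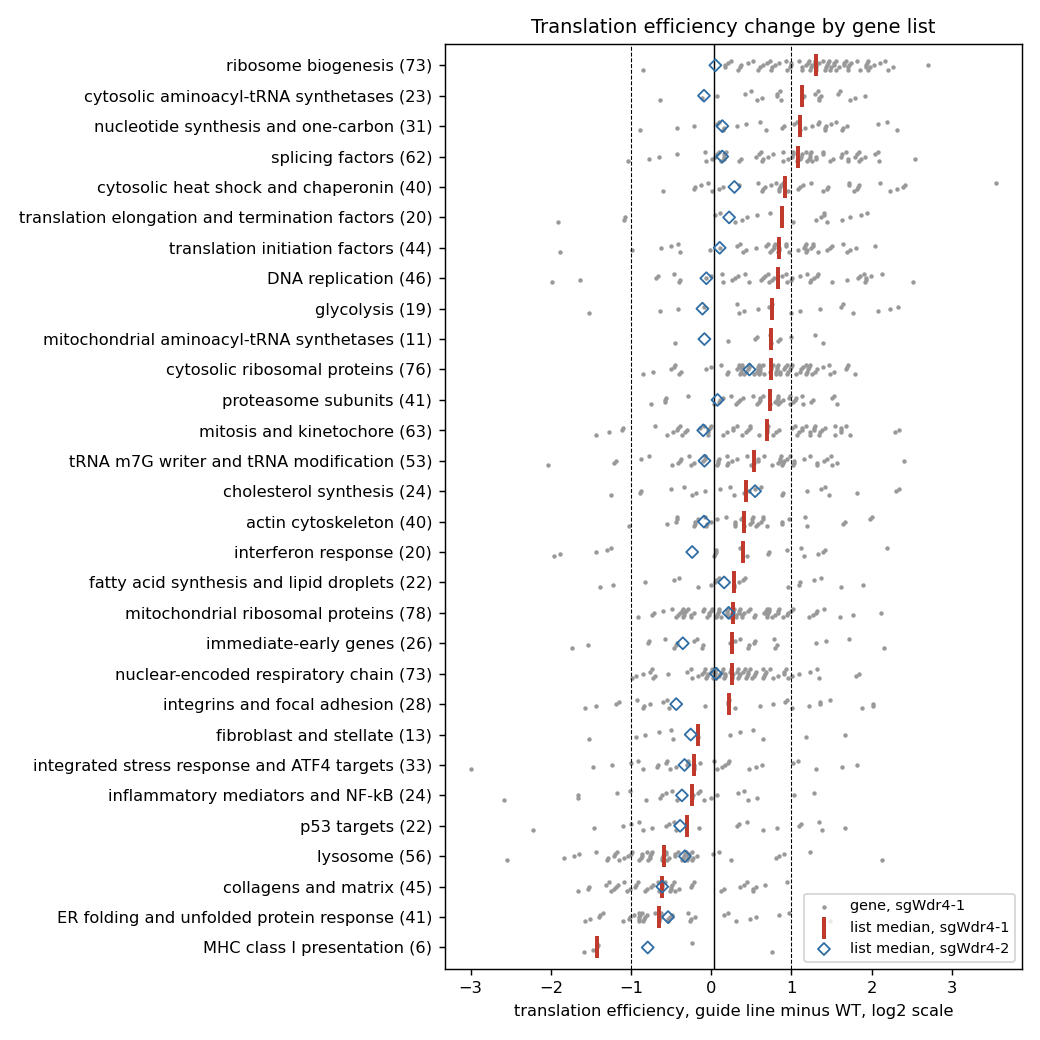
TE change on the log2 scale for 30 gene groups with the number of genes in brackets, grey points for genes in sgWdr4-1 minus WT, red bars for their medians and blue diamonds for the medians of the same genes in sgWdr4-2 minus WT. The solid line marks the median of all genes, dashed lines mark 2-fold, and the 13 mitochondrially encoded genes are left out. Group medians run from -1.42 for MHC class I presentation to 1.30 for ribosome biogenesis.

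Genes of DNA replication and cell division had higher TE with little change in RNA. Of 46 replication genes, 19 were at least 2-fold higher and 2 lower in TE, with a median of 0.83 against -0.06 in sgWdr4-2. Of the 7 genes of the MCM helicase, a sub-group formed after the values were seen, 7 had TE above WT and 6 were at least 2-fold higher. Mcm4 had input of 159 TPM in WT and 182 in sgWdr4-1 and footprints of 20.3 TPM in WT, 138 in sgWdr4-1 and 20.6 in sgWdr4-2. WT and sgWdr4-2 were alike and sgWdr4-1 stood apart. Cdc6 and Cdt1, which load the helicase onto origins, had footprints of 6.71 TPM in WT, 35.2 in sgWdr4-1 and 7.83 in sgWdr4-2 and of 18.7 TPM in WT, 82.4 in sgWdr4-1 and 24.2 in sgWdr4-2. Orc2, a subunit of the complex that marks the same origins, went the other way, with footprints of 60.4 TPM in WT, 13.1 in sgWdr4-1 and 33.9 in sgWdr4-2. Of 63 mitosis and kinetochore genes, 25 were at least 2-fold higher and 4 lower, with a median of 0.69. Cdc20, an activator of the anaphase-promoting complex, had footprints of 34.6 TPM in WT, 169.8 in sgWdr4-1 and 46.0 in sgWdr4-2. Smc4, a condensin subunit, was the lowest of that group, with footprints of 537 TPM in WT, 156 in sgWdr4-1 and 274 in sgWdr4-2. Enzymes of nucleotide synthesis and one-carbon metabolism were 18 at least 2-fold higher and 0 lower of 31, with a median of 1.10. Rrm1, the large subunit of ribonucleotide reductase, had footprints of 56.6 TPM in WT, 251 in sgWdr4-1 and 71.2 in sgWdr4-2, and Atic, which finishes purine synthesis, had 55.4 TPM in WT, 253 in sgWdr4-1 and 85.5 in sgWdr4-2. Input of Rrm1 and Atic was within 1.5-fold of WT, with changes of 0.05 and -0.14.

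Glycolytic enzymes had higher footprints, and several had higher RNA too. Of 19 genes, 8 were at least 2-fold higher and 1 lower in TE, with a median of 0.76, and the median input change was 0.33. Pkm, pyruvate kinase, had input of 2494 TPM in WT and 2436 in sgWdr4-1 and footprints of 702 TPM in WT, 2893 in sgWdr4-1 and 768 in sgWdr4-2. Hk2, a hexokinase, had input of 27.3 TPM in WT and 26.7 in sgWdr4-1 and footprints of 7.75 TPM in WT, 42.0 in sgWdr4-1 and 6.88 in sgWdr4-2. Both thus differed in footprints at equal RNA. Pfkl, a phosphofructokinase, had input of 182 TPM in WT and 314 in sgWdr4-1 and footprints of 94.4 TPM in WT, 217 in sgWdr4-1 and 80.1 in sgWdr4-2, so both kinds of library were higher. Pdk1, which holds pyruvate out of the citric acid cycle, had more RNA, with an input change of 0.83, but fewer footprints, at 11.3 TPM in WT, 6.61 in sgWdr4-1 and 12.0 in sgWdr4-2. Gapdh footprints were 116 TPM in WT, 439 in sgWdr4-1 and 149.6 in sgWdr4-2, but this gene has many processed pseudogenes and its level is uncertain.

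Cholesterol synthesis genes combined lower RNA with higher TE. Of 24 cholesterol synthesis genes, 7 had at least 2-fold higher TE and 1 lower, with a median TE change of 0.44 and a median input change of -0.19. Mvd, which makes isopentenyl pyrophosphate, had input of 26.9 TPM in WT and 16.1 in sgWdr4-1 and footprints of 16.0 TPM in WT, 51.8 in sgWdr4-1 and 37.5 in sgWdr4-2. Hmgcs1, the synthase that makes the pathway's HMG-CoA, had input of 122 TPM in WT and 99.0 in sgWdr4-1 and footprints of 51.4 TPM in WT, 148 in sgWdr4-1 and 81.1 in sgWdr4-2. For both genes sgWdr4-2 footprints were also above WT, and the group's median in sgWdr4-2 was 0.55. Insig1, the ER protein that retains the pathway's transcription factor, was lower in sgWdr4-1 footprints, at 103 TPM in WT, 39.0 in sgWdr4-1 and 149.8 in sgWdr4-2. Of 22 fatty acid and lipid droplet genes, 6 were at least 2-fold higher and 2 lower, with a median of 0.29. Fasn, the fatty acid synthase, had footprints of 17.6 TPM in WT, 57.3 in sgWdr4-1 and 29.0 in sgWdr4-2.

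Several of the groups with the lowest TE medians make proteins that enter the endoplasmic reticulum (ER). Of 41 genes for ER folding and the unfolded protein response, 1 (2.44%) was at least 2-fold higher and 8 (19.5%) were lower in TE. The shares of all genes were 14.9% and 13.6%. The ER group's median was -0.66, and -0.54 in sgWdr4-2. Derl1 and Derl2, channel proteins of ER-associated degradation, had footprints of 352 TPM in WT, 170.2 in sgWdr4-1 and 208 in sgWdr4-2 and of 116 TPM in WT, 50.8 in sgWdr4-1 and 42.1 in sgWdr4-2. Both had slightly more RNA, with input changes of 0.35 and 0.40. Ero1a, the oxidase that feeds disulfide formation, had input of 62.4 TPM in WT and 89.8 in sgWdr4-1 and footprints of 133 TPM in WT, 71.8 in sgWdr4-1 and 61.6 in sgWdr4-2. The 1 higher member, Srp68, belongs to the cytosolic particle that carries ribosomes to the ER, and had footprints of 19.8 TPM in WT, 66.1 in sgWdr4-1 and 16.6 in sgWdr4-2. Of 45 collagen and matrix genes, 0 were at least 2-fold higher and 12 lower, with a median of -0.62 in sgWdr4-1 and -0.61 in sgWdr4-2. Col1a1, a chain of type I collagen, had input of 482 TPM in WT and 595 in sgWdr4-1 and footprints of 1116 TPM in WT, 476 in sgWdr4-1 and 680.4 in sgWdr4-2. Footprints of Col5a1, a type V chain, were 52.9 TPM in WT, 25.6 in sgWdr4-1 and 12.3 in sgWdr4-2. For the ER and matrix groups the medians were thus below WT in both guide lines, each against the same WT libraries. Set directly against sgWdr4-2 their medians were -0.14 and -0.02. A difference in both guide lines and one in the shared WT libraries cannot be told apart here.

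Lysosomal genes were lower, but not all of them. Of 56 genes, 2 (3.57%) were at least 2-fold higher and 14 (25%) lower in TE, against 14.9% and 13.6% of all genes, with a median of -0.58. In sgWdr4-2 the median of the lysosomal genes was -0.33, and set directly against sgWdr4-2 it was -0.21 in sgWdr4-1. Hexa, which degrades gangliosides, had input of 140.4 TPM in WT and 169.8 in sgWdr4-1 and footprints of 185 TPM in WT, 67.3 in sgWdr4-1 and 116 in sgWdr4-2. Lamp1, the main glycoprotein of the lysosomal membrane, had input of 1246 TPM in WT and 1218 in sgWdr4-1 and footprints of 1078 TPM in WT, 334 in sgWdr4-1 and 1068 in sgWdr4-2. In Lamp1 the sgWdr4-2 value was close to that of WT, while in Hexa it lay between. Split after the values were seen, the V-ATPase proton pump had a median of -0.29 over 15 genes and the remaining 41 genes a median of -0.78, with 14 at least 2-fold lower and 0 higher. The 2 members with at least 2-fold higher TE were Atp6v1a and Atp6v1b2, the cytosolic subunits that bind ATP, with footprints of 41.3 TPM in WT, 162 in sgWdr4-1 and 37.6 in sgWdr4-2 and of 37.2 TPM in WT, 83.7 in sgWdr4-1 and 39.9 in sgWdr4-2. Genes for MHC class I presentation had the lowest median of the listed groups other than the mitochondrially encoded genes, at -1.42 with 4 of 6 at least 2-fold lower, against -0.79 in sgWdr4-2. With the filter lowered to a mean of 1 TPM, which let more genes of the group enter, the median was -0.31. Set directly against sgWdr4-2, at the filter used throughout, the median in sgWdr4-1 was -0.47. H2-K1, a class I heavy chain, had input of 28.3 TPM in WT and 44.6 in sgWdr4-1 and footprints of 149 TPM in WT, 76.6 in sgWdr4-1 and 82.3 in sgWdr4-2. Tapbp, the chaperone that helps load it, had input of 39.5 TPM in WT and 55.4 in sgWdr4-1 and footprints of 102 TPM in WT, 52.5 in sgWdr4-1 and 59.2 in sgWdr4-2. In both, RNA was higher than in WT and footprints were lower, and sgWdr4-2 footprints were also below WT.

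Adhesion genes went in both directions. Of 28 integrin and focal adhesion genes, 8 (28.6%) were at least 2-fold higher and 4 (14.3%) lower in TE, against 14.9% and 13.6% of all genes. The share with lower TE was thus near that of all genes. The group's median was 0.22, and -0.44 in sgWdr4-2. The 4 lower genes were Itga5, Itgav, Itgb1 and Itga6, integrins that span the membrane. Itgav footprints were 421 TPM in WT, 186 in sgWdr4-1 and 239 in sgWdr4-2, and Itgb1 footprints were 1601 TPM in WT, 769 in sgWdr4-1 and 1013 in sgWdr4-2. The 4 highest were Tln1, Flna, Flnc and Actn4, which link integrins to actin inside the cell. Tln1, or talin, had footprints of 22.2 TPM in WT, 117 in sgWdr4-1 and 12.8 in sgWdr4-2, and Flna, or filamin A, had 66.3 TPM in WT, 339 in sgWdr4-1 and 42.0 in sgWdr4-2. In Tln1 and Flna the sgWdr4-2 value was below WT, so the guide lines lay on opposite sides. Of 40 actin cytoskeleton genes, 6 (15%) were at least 2-fold higher and 1 (2.5%) lower, against 14.9% and 13.6% of all genes. Among the 40 genes Msn, or moesin, was at 339 TPM in WT, 1545 in sgWdr4-1 and 304 in sgWdr4-2. Interferon genes also went in both directions, with 6 of 20 (30%) at least 2-fold higher and 5 (25%) lower, beside the same shares of all genes. The receptor chains Ifnar1 and Ifnar2 had footprints of 59.8 TPM in WT, 18.5 in sgWdr4-1 and 15.2 in sgWdr4-2 and of 60.2 TPM in WT, 19.5 in sgWdr4-1 and 40.0 in sgWdr4-2. Irf1, a transcription factor of the response, had 10.3 TPM in WT, 41.5 in sgWdr4-1 and 14.9 in sgWdr4-2. Among 24 inflammatory and NF-kB genes, 2 (8.33%) were higher and 5 (20.8%) lower. Lowest was the kinase Irak1, which relays signals from Toll-like receptors, with footprints of 18.1 TPM in WT and 2.35 in sgWdr4-1.

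Of 33 genes of the integrated stress response and its factor ATF4, 4 were at least 2-fold higher in input and 0 lower, with a median input change of 0.43, against a median of 0.08 for all genes. Trib3, a pseudokinase induced by ATF4, had input of 6.22 TPM in WT, 22.2 in sgWdr4-1 and 6.16 in sgWdr4-2 and footprints of 14.9 TPM in WT, 36.7 in sgWdr4-1 and 6.01 in sgWdr4-2. Pycr1, an enzyme of proline synthesis, had input of 8.44 TPM in WT, 21.9 in sgWdr4-1 and 9.95 in sgWdr4-2 and footprints of 20.1 TPM in WT, 26.1 in sgWdr4-1 and 11.4 in sgWdr4-2. Both RNAs were highest in sgWdr4-1. TE was at least 2-fold higher for 5 of the 33 (15.2%) and lower for 4 (12.1%), shares close to those over all genes, with a median of -0.21 that changed sign under other settings given in the closing section. The higher ones included the serine synthesis enzymes Phgdh and Psat1, at 1.82 and 1.30, and the lower ones Ppp1r15a, which restores eIF2 activity, at -1.48. The 22 targets of p53 had a median input change of 0.11, close to that of all genes. Among them Cdkn1a, the cell cycle inhibitor p21, had input of 7.89 TPM in WT and 21.8 in sgWdr4-1 and footprints of 56.9 TPM in WT, 108 in sgWdr4-1 and 10.3 in sgWdr4-2. Its RNA and its footprints were both higher than in WT, while sgWdr4-2 had fewer footprints. TE of the p53 targets was at least 2-fold higher for 5 (22.7%) and lower for 4 (18.2%), against 14.9% and 13.6% of all genes. Of 26 immediate-early genes, 4 (15.4%) were higher and 2 (7.69%) lower, against 14.9% and 13.6% of all genes. Among the 26 genes Jun was at 35.4 TPM in WT, 130.1 in sgWdr4-1 and 20.3 in sgWdr4-2. Ier5 was at 51.0 TPM in WT, 233 in sgWdr4-1 and 47.4 in sgWdr4-2.

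Single genes were ranked where the mean reached 20 TPM in both kinds of library. The 14 with the highest TE change were Cpsf3, Ncl, Mid1ip1, Ik, Sf3b1, Ddx3x, Mcm4, Vcp, Kpna2, Pum3, Rbmxl1, Hsph1, Top1 and Bag3. Cpsf3, the nuclease that cuts pre-mRNA ends before poly(A) addition, had input of 47.5 TPM in WT and 49.9 in sgWdr4-1 and footprints of 14.5 TPM in WT, 118 in sgWdr4-1 and 28.2 in sgWdr4-2. Vcp, the segregase that pulls ubiquitinated proteins out of complexes, had input of 605 TPM in WT and 649.7 in sgWdr4-1 and footprints of 64.2 TPM in WT, 398 in sgWdr4-1 and 65.1 in sgWdr4-2. Ddx3x, an RNA helicase of translation initiation, had input of 285 TPM in WT and 218 in sgWdr4-1 and footprints of 59.6 TPM in WT, 266 in sgWdr4-1 and 88.5 in sgWdr4-2. In Vcp and Ddx3x, as in Cpsf3, footprints were highest in sgWdr4-1 at input within 1.5-fold of WT. Pum3, a nucleolar RNA-binding protein, had footprints of 31.8 TPM in WT, 120.0 in sgWdr4-1 and 27.7 in sgWdr4-2, and Top1, a DNA topoisomerase, had 15.6 TPM in WT, 59.7 in sgWdr4-1 and 12.1 in sgWdr4-2. Kpna2 and Rbmxl1 have near-identical copies, Kpna2rt and Rbmx, so their single values are uncertain. In footprints alone Snd1, a nuclease of RNA silencing complexes, was added, at 19.5 TPM in WT, 116 in sgWdr4-1 and 17.4 in sgWdr4-2. For Vcp, Mcm4, Hsph1 and Snd1 the sgWdr4-2 footprints were within 1.5-fold of WT.

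The 14 genes with the lowest TE change were Apoa2, Socs6, Sidt2, R3hdm2, Sap18b, Nipa2, Mff, Ids, Rusc2, Il10rb, Znrf1, BC005537, Poglut3 and Gde1. Apoa2, an apolipoprotein, had input of 105 TPM in WT and 118 in sgWdr4-1 and footprints of 57.7 TPM in WT, 5.06 in sgWdr4-1 and 17.7 in sgWdr4-2. Socs6, a suppressor of cytokine signalling, had input of 32.9 TPM in WT and 37.0 in sgWdr4-1 and footprints of 42.5 TPM in WT, 5.84 in sgWdr4-1 and 10.9 in sgWdr4-2. In both genes sgWdr4-2 footprints lay between the other lines, with RNA within 1.5-fold of WT. Mff, a receptor for the mitochondrial fission machinery, had footprints of 62.3 TPM in WT, 11.3 in sgWdr4-1 and 80.0 in sgWdr4-2, and Ids, a lysosomal sulfatase, had 37.1 TPM in WT, 6.83 in sgWdr4-1 and 30.8 in sgWdr4-2. Il10rb, a chain of the interleukin-10 receptor, had 38.7 TPM in WT, 8.43 in sgWdr4-1 and 30.9 in sgWdr4-2. For these last 3 genes the sgWdr4-2 footprints were within 1.5-fold of WT. Nipa2, a magnesium transporter, was low in both guide lines, at 88.3 TPM in WT, 19.2 in sgWdr4-1 and 17.3 in sgWdr4-2. Sap18b has a near-identical copy, Sap18, so its value of -2.66 is uncertain. In footprints alone Slc25a37, the mitochondrial iron importer, was added, at 43.0 TPM in WT, 7.48 in sgWdr4-1 and 29.5 in sgWdr4-2.

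**Figure D5:**
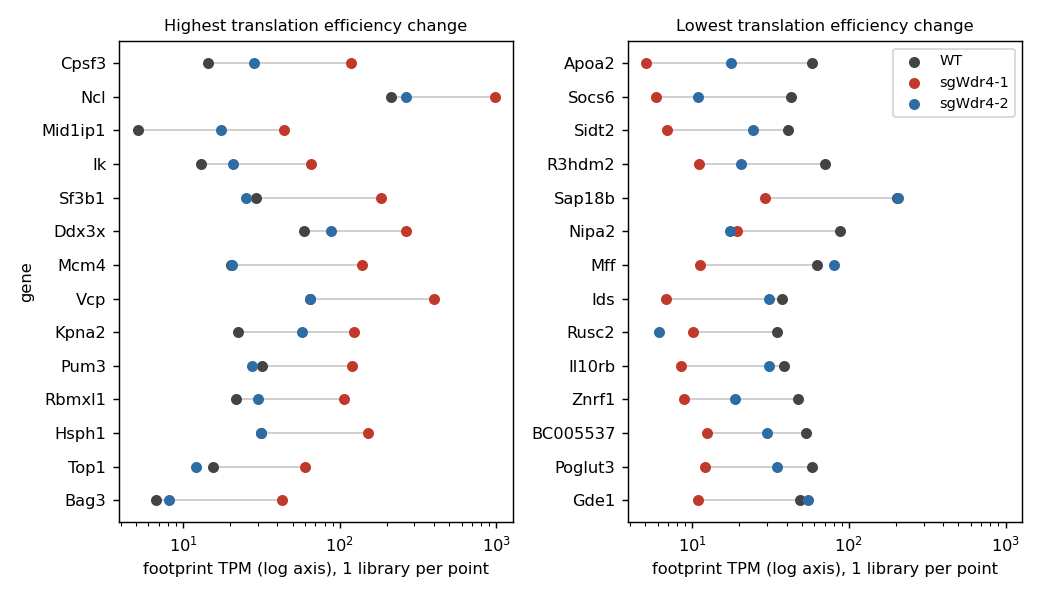
Footprint TPM on a log axis for the 14 genes with the highest (left) and the 14 with the lowest (right) TE change, 1 point per library for WT, sgWdr4-1 and sgWdr4-2, with a grey line from WT to sgWdr4-1. Cpsf3 runs from 14.5 TPM in WT to 118 TPM in sgWdr4-1, and Apoa2 from 57.7 to 5.06 TPM.

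Input RNA differed by 2-fold for few genes. Genes with the highest input change included Plau, the urokinase protease, with input of 14.4 TPM in WT, 40.1 in sgWdr4-1 and 15.8 in sgWdr4-2 and footprints of 106 TPM in WT, 71.8 in sgWdr4-1 and 26.2 in sgWdr4-2. Ccn2, a matricellular growth factor, had input of 977 TPM in WT, 1919 in sgWdr4-1 and 999 in sgWdr4-2 and footprints of 3402 TPM in WT, 4858 in sgWdr4-1 and 1096 in sgWdr4-2. Has2, which makes hyaluronan, had input of 8.27 TPM in WT, 18.8 in sgWdr4-1 and 8.97 in sgWdr4-2. These RNAs were higher in sgWdr4-1 than in either other line. Bnip3, a mitophagy receptor, had input of 60.0 TPM in WT and 129 in sgWdr4-1 and footprints of 343 TPM in WT, 173 in sgWdr4-1 and 306 in sgWdr4-2, so that its TE change was -2.08. Slc16a3, the lactate exporter, had input of 17.7 TPM in WT and 38.7 in sgWdr4-1 and footprints of 35.4 TPM in WT, 71.9 in sgWdr4-1 and 22.2 in sgWdr4-2. Ndrg1, a stress-responsive protein, had input of 33.5 TPM in WT and 70.8 in sgWdr4-1 and footprints of 83.2 TPM in WT, 200.3 in sgWdr4-1 and 46.1 in sgWdr4-2. Slc16a3 and Ndrg1 were thus higher in both kinds of library, and Bnip3 in RNA only. Acsbg1, Gadd45a, Arid5a and Sema7a had input changes between 0.96 for Sema7a and 1.13 for Acsbg1. Genes with the lowest input change were led by Ece1, the protease that matures endothelin, with input of 188 TPM in WT, 74.7 in sgWdr4-1 and 21.8 in sgWdr4-2 and footprints of 43.7 TPM in WT, 26.1 in sgWdr4-1 and 34.1 in sgWdr4-2. Rabl2, a small GTPase of cilia, had input of 35.4 TPM in WT and 16.2 in sgWdr4-1 and level footprints of 44.9 TPM in WT, 43.2 in sgWdr4-1 and 45.8 in sgWdr4-2. Ppig, Hspa4l, Rps29, Pam16l, Mvd, Acsl3, Idi1 and Snrpd3 followed, with changes of -0.75 for Ppig to -0.70 for Snrpd3, all within 2-fold. Pam16l has a near-identical copy, Pam16, and is uncertain.

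Bnip3 and Slc16a3 are textbook targets of the hypoxia-inducible factor HIF, whose sites share the letters ACGTG. They were picked after their input was seen, and Hk2 and Pkm, also textbook targets, had input changes of -0.03 and -0.03. Across the 19 glycolysis genes the median input change was 0.33. Input was above WT for 15 of them and for 4794 of all 7564 genes. The letters were searched on both strands from 250 bases before to 50 bases after each annotated start and were found in 32.3% of the genes that entered, in 19.6% of all RefSeq promoters and in 12 of 19 glycolysis genes. Of the 10 genes with the highest input change at a mean of at least 20 TPM in both kinds of library, 6 had a promoter in the table. Of these, 2 (33.3%) held a match, Bnip3 and Slc16a3, a share near that of all genes. Among all 26 genes with at least 2-fold higher input, 20 had a promoter and 4 of them (20%) held a match. Both are shown in part, with the matches in capitals. In Bnip3 the matches on the 2 strands overlap as CACGTG, which is also an E-box.
Bnip3, chr7:138909589-138909634, minus strand: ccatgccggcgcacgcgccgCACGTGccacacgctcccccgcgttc
Slc16a3, chr11:120949020-120949077, plus strand: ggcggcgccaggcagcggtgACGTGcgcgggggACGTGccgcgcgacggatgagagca
A match describes the letters and says nothing of a bound factor in these cells.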

How the data were processed

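Per the labels' protocols, input RNA and ribosome footprints were sequenced from monoclonal mouse lines, footprints after RNase I digestion and rRNA removal. The deposited table gives TPM per gene symbol and library. Fastp 0.18.0 and Bowtie2 are named in the submitters' processing notes. On the build, the annotation, the counting program and multi-mapping reads, nothing was given in the sources used here. Read depth cannot be had from TPM, so no counting interval was computed.

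From these values, log2(TPM + 1) differences were taken for input, footprints and TE, sgWdr4-1 minus WT, in Python (3.11.15), using pandas 2.3.3 and numpy 2.4.6, with figures by matplotlib 3.10.9. The calculation was tested on simulated data. Where a symbol had several rows (20 symbols), the one highest on average was used. With 1 library per condition and kind, genes past 2-fold were counted and no p-value was computed. The comparison, its gene lists (37, of which 31 had at least 4 genes that entered) and its tests were chosen with earlier results of these data known.

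Named genes are the 14 highest and 14 lowest in TE, 8 in footprints and 10 in input, with a mean of at least 20 TPM in both kinds of library, leaving aside mitochondrially encoded and histone genes, pseudogenes and gene models. Up to 4 genes per direction in TE and 3 in input were added from each list, with all members of short lists. Rps6 and Rps3 were named after their values were seen. Promoter sequences came from RefSeq, GRCm38.p6, matched by symbol. Protein sequences were not used here, and some genes that the rule names are not reported here. Alternatives were other pseudocounts, filters and scalings, summed repeated symbols and sgWdr4-2 as comparator.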

Additional observations from a re-analysis of the deposited data

Results flagged for a closer look

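3 gene groups had median TE changes of opposite sign in the 2 guide lines, with both medians at least 0.2 in size. Each line was set against the same WT libraries. In other groups the signs also differed but the sgWdr4-2 median was smaller than 0.2 in size, as for cytosolic aminoacyl-tRNA synthetases, at 1.13 and -0.09. For interferon genes the median was 0.40 in sgWdr4-1 and -0.24 in sgWdr4-2, and the sgWdr4-1 value was 0.06 with the filter raised to a mean of 20 TPM. Integrin and focal adhesion genes had 0.22 and -0.44. Immediate-early genes had 0.26 and -0.35. Rescaled without mitochondrially encoded genes, the sgWdr4-1 medians were 0.16 for interferon, 0.02 for integrin and focal adhesion and 0.06 for immediate-early genes. With 1 library of each kind per line, these differences were not tested.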

How the results depend on the processing

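No paired analysis was possible because each condition had 1 library of each kind, and for the same reason no library could be left out. Counts of at least 2-fold changes moved by over 1.5 times under these settings. Input higher (26) was 6 with a pseudocount of 5, 8 at a mean of at least 20 TPM, 72 at a mean of at least 1 TPM and 13 with the median change set to 0. Input lower (7) was 3 with the pseudocount of 5 and 2 at 20 TPM. At 20 TPM, where 4096 genes entered, footprints were 775 higher and 339 lower, and TE was 731 higher and 457 lower. With the pseudocount of 5, footprints lower numbered 431 and TE lower 669. Rescaled without mitochondrially encoded genes, footprints lower numbered 1209, and 1194 without ribosomal protein and histone genes as well. Not among the moved counts were those with sgWdr4-2 in place of WT, where 7516 genes entered. There TE split 1207 higher and 919 lower, within 1.5 times of the main counts. The median TE change turned sign for the integrated stress response (-0.21), to 0.0687 at 20 TPM and 0.340 against sgWdr4-2, for the fibroblast and stellate markers (-0.16), to 0.36 at 20 TPM, for p53 targets (-0.30), to 0.823 and 0.354, and for cholesterol synthesis (0.44), to -0.0148 against sgWdr4-2. The cause was not tested.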

Other observations

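Replication-dependent histone mRNAs, which lack a poly(A) tail, took 2.60% of TPM in WT footprints and 4.06% in sgWdr4-1 footprints. In input they took 0.0128% in WT and 0.0117% in sgWdr4-1. The footprint share was higher in sgWdr4-1, and with 1 library each this difference was not tested.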
